A study of Mus musculus with 4 samples.

Results

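The fibroblast growth factor (FGF) genes described here are 4 ligands (Fgf1, Fgf2, Fgf7 and Fgf10), 2 receptors (Fgfr1 and Fgfr2) and 4 inhibitors that FGF signalling induces (Spry1, Spry2, Spry4 and Dusp6). They were taken by name: a probe was included if its gene name in the array design, or the current symbol of its RefSeq accession, was one of the 10. This gave 15 probes of 55681 on the array, 14 of them matched by accession and 1 by the design's name alone. All 10 genes were tested, among 24518 features. The cells were precursors of fat cells (adipocyte progenitors) that had been isolated by FACS, a sort by fluorescence, out of subcutaneous fat and lysed directly. All mice were FVB males aged 4 weeks and were given no treatment. There were 2 samples from mice carrying an Adamts1 transgene and 2 from wild-type mice, each on 1 single-colour Agilent array. The transgene's product, Adamts1, is an extracellular protease whose substrates include matrix proteoglycans. Which promoter drives the transgene, in which cells, and whether each sample was a separate animal are not given in the labels. The p-values therefore rest on the spread between these samples, which may be technical.

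FGFs are secreted proteins that bind receptor tyrosine kinases together with heparan sulfate, a sugar chain of cell surface and matrix proteoglycans. The active receptor signals through adaptor proteins and the Ras-ERK kinase cascade, and ERK in turn induces genes that limit the signal, among them the Sprouty proteins and the phosphatase Dusp6. In fat, Fgf10 is known as a stromal factor required for white fat development in mice, Fgf1 as a factor needed for the remodelling of fat on a rich diet, and Fgf2 as a mitogen of stromal cells.

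The probes that the results turn on are shown 5′ to 3′, with the mm9 positions given in the array files. No mm9 annotation of exons or transcript ends was used here. The first 30 of the 60 bases are shown for the probes of the 2 genes that were called, Fgf10 at chr13:119580365-119580424 and Spry1 at chr3:37543403-37543462, both on the plus strand.
Fgf10: acagcaaatagtgcagacgttggattctta
Spry1: ctcatgtctgaatataacatatcactactt
The Fgf2 probe is shown whole because its 60 bases map across 47220 bases of chr3:37247934-37295153 (plus strand), as those of a probe across an intron would.
Fgf2: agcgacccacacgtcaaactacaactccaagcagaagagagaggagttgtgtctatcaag
The 2 Fgfr2 probes are shown because they overlap on chromosome 7 (chr7:137307473-137307532 and chr7:137307455-137307514, minus strand). The 42 bases in capitals are common to both, and 18 bases of each are not.
Fgfr2 probe 1: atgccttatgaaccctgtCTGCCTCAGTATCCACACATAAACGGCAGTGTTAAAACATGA
Fgfr2 probe 2: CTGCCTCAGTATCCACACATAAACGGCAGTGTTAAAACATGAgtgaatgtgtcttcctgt
One of the 3 Fgfr1 probes, at chr8:26684061-26684120 (plus strand), is shown as the one nearest to the start of the transcript, at transcript position 2975.
Fgfr1: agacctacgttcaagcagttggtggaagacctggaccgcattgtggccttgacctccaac

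Values below are normalised log2 signals, the log2 of the processed intensity minus the 75th percentile of its array, so that 0 is the 75th percentile. A probe's level is set only against the same probe on other arrays, since probes differ in brightness. The 75th percentile of intensity ran from 209 to 306 over the 4 arrays, and 47.04% to 56.98% of spots were well above background, the lowest share on wild-type array 1. The Pearson correlation over tested features was 0.994 between the transgenic arrays and 0.984 between the wild-type arrays. Between genotypes, wild-type array 2 reached 0.9839 (transgenic array 1) and 0.9842 (transgenic array 2). Wild-type array 2 was thus about as close to these as to wild-type array 1 (0.9844). The values of wild-type array 1 against the same pair were lower, 0.9769 and 0.9772. The Adamts1 probe had signals of 6.98 and 7.05 on the transgenic arrays and 6.85 and 6.92 on the wild-type arrays (adjusted p = 0.518). All 12 progenitor markers listed for this check, among them Pdgfra, Cd34 and Ly6a, were well above background on all 4 arrays.

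Transgenic samples were set against wild-type samples to find the genes of this pathway whose RNA differed with the transgene. Fgf10 and Spry1 rose in the transgenic samples, by 2.69-fold and 1.96-fold. The other 8 genes missed the threshold, an adjusted p under 0.05 by limma over all features tested. Of the 24518 features tested, 1.86% were called in either direction, 1.11% higher and 0.755% lower, and of the 10 genes 2 were called higher and 0 lower. At an unadjusted p under 0.05 there were 4 higher (Fgf1, Fgf10, Spry1 and Spry4) and 1 lower (Fgf2), where 18.4% of all features had such a p. Fgf1 and Spry4 were tested because both transgenic arrays were well above background, which did not hold for both wild-type arrays, so they could enter these counts more easily as higher than as lower. With the test limited to probes well above background on all 4 arrays, 3 of 8 genes had such a p, as did 3731 of all 20162 features. The median difference of the 10 genes, with Fgf1 and Spry4 at their measured values, was 0.061 on the log2 scale, against 0.0074 over all features. This median too is open to the filter that let these 2 genes in. The groups did not overlap for 4 genes that were higher and 3 that were lower on both transgenic arrays, where 26.6% and 25.6% of all features showed this. Fgf1 and Spry4 are 2 of the 4. Precision is limited by the 2 arrays in each group, for which the smallest 2-sided p of an exact permutation test is 0.333. The SEs, intervals and p-values given are limma's, which draws each gene's variance towards that of features of similar intensity. They are thus not the spread of that gene's own arrays alone. Leaving out 1 array leaves a group with 1 array. The calls among the 10 genes then changed with the array left out, as did those over all features. Fgf10 differed by 1.35 to 1.51 and Spry1 by 0.91 to 1.03 in these fits. In RNA from a bulk of sorted cells, fewer cells of a type and less RNA per cell cannot be told apart.

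**Figure D1:**
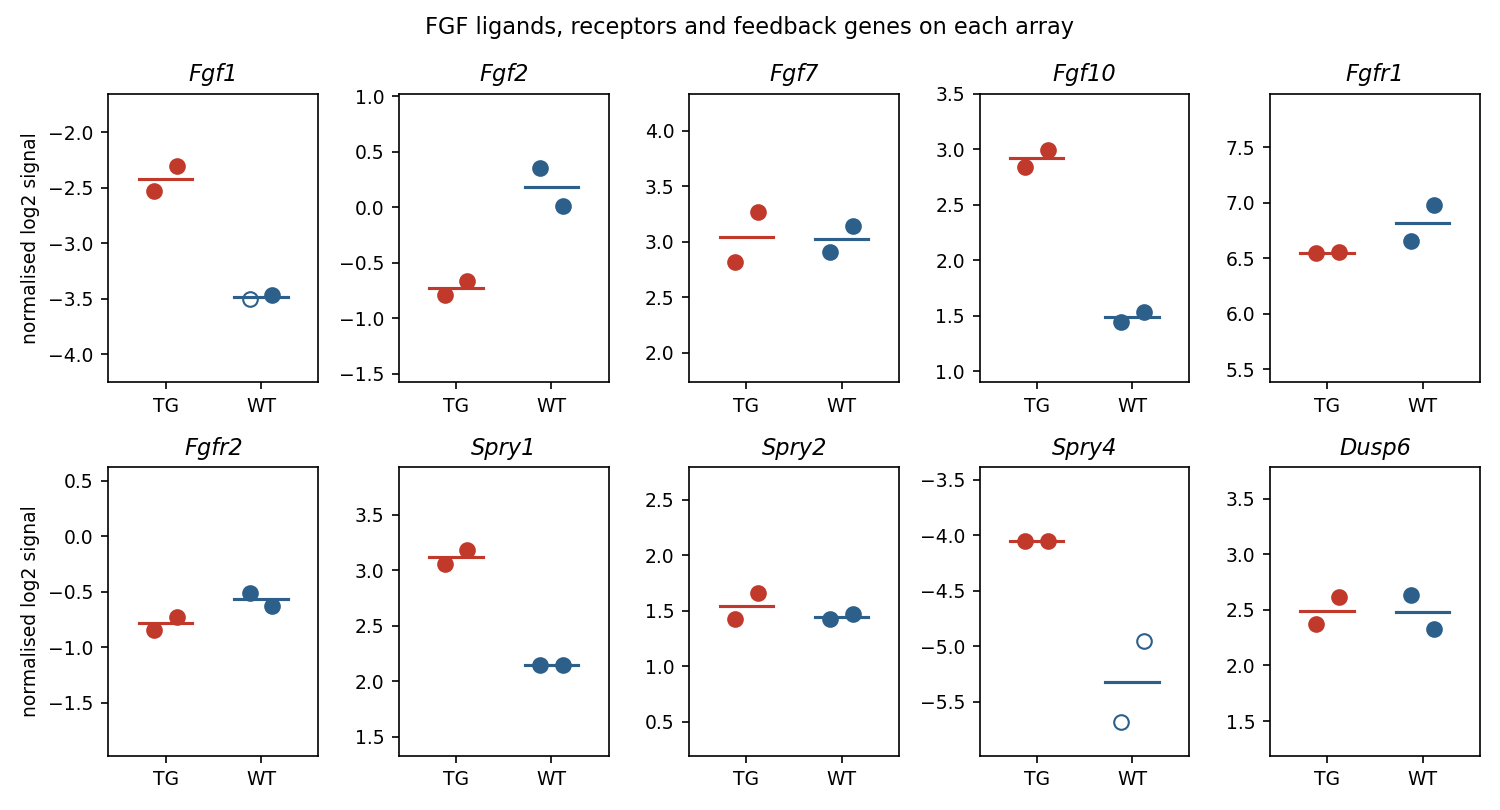
Normalised log2 signal (y axis, a span of equal size in every panel) of the probe used for each gene on the 2 transgenic (TG, red) and 2 wild-type (WT, blue) arrays. Each point is 1 array, bars are group means, and open points were not well above background. Fgf10 and Spry1 lie higher on both transgenic arrays, while the points of Fgf7, Spry2 and Dusp6 overlap between the groups.

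Among the ligands, Fgf10, which signals mainly through the epithelial form of Fgfr2, had normalised signals of 2.84 and 2.99 on the transgenic arrays, against 1.44 and 1.53 on the wild-type arrays. Both transgenic arrays were higher than both wild-type arrays, by far more than either pair differed within itself. The difference was 1.43 ± 0.10 on the log2 scale (SE, n = 2 per group), or 2.69-fold with a 95% interval of 2.25 to 3.23 (adjusted p = 0.0145). Its probe was printed 10 times on each array. The retained spots ranged from 2.62 to 2.92 on transgenic array 1 and from 2.88 to 3.07 on transgenic array 2, against 1.41 to 1.47 on wild-type array 1 and 1.44 to 1.68 on wild-type array 2. No spot of a transgenic array thus reached down to a spot of a wild-type array. By p-value Fgf10 stood at place 30 of all features. Its call was lost without transgenic array 2 (difference 1.35, adjusted p = 0.0548) and when limma's variance was fitted without an intensity trend (adjusted p = 0.0747).

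Fgf2, a ligand that is released from cells without a signal peptide, was not called, and its values ran the other way. Its signals were -0.79 and -0.66 on the transgenic arrays, against 0.35 and 0.011 on the wild-type arrays. Both transgenic arrays were lower than both wild-type arrays. The difference was -0.91 ± 0.17 (SE, n = 2 per group, adjusted p = 0.0737), with a 95% interval of 0.395 to 0.716 for transgenic over wild-type signal. This probe too had 10 spots per array, which ranged from -0.91 to -0.53 over both transgenic arrays and from -0.090 to 0.52 over both wild-type arrays. Without wild-type array 2, which leaves 1 wild-type array, the Fgf2 difference was -1.08. A second probe carrying the name Fgf2 lies inside the span of the first. It was well above background on wild-type array 2 alone, so that it was not tested.

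Fgf1, a ligand that lacks a signal peptide and binds every FGF receptor, was dim. Its signals were -2.53 and -2.31 on the transgenic arrays, both well above background, against -3.50 and -3.46 on the wild-type arrays, of which array 2 alone was well above background. Both transgenic arrays were higher than both wild-type arrays. The difference was 1.06 ± 0.24 (SE, n = 2 per group, adjusted p = 0.111), which did not pass. It was 0.14 with normexp background correction (adjusted p = 0.747). Without wild-type array 2 it was 1.08, against a wild-type array 1 on which Fgf1 was not well above background. Its second probe, nearer to the start of the transcript, was well above background on wild-type array 2 alone and was not tested. That probe ran the other way, with -6.83 and -6.75 on the transgenic arrays against -5.47 and -4.46 on the wild-type arrays.

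Fgf7, also called keratinocyte growth factor and like Fgf10 a stromal ligand that acts on epithelia, had signals of 2.82 and 3.27 on the transgenic arrays and 2.90 and 3.14 on the wild-type arrays. The groups overlapped, and the transgenic arrays differed from each other by more than the groups did. The difference was 0.021 ± 0.18 (SE, n = 2 per group, adjusted p = 0.963), with a 95% interval of 0.749 to 1.38 for the fold. A rise or fall of the size seen for Fgf10 lies outside this interval.

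Neither receptor was called. Fgfr1, the FGF receptor known as the main one of mesenchymal cells, had signals of 6.54 and 6.56 on the transgenic arrays and 6.66 and 6.98 on the wild-type arrays. The transgenic arrays were lower than both wild-type arrays, but by less than the wild-type arrays differed from each other. The difference was -0.27 ± 0.13 (SE, n = 2 per group, adjusted p = 0.352). The 3 Fgfr1 probes gave differences of -0.30, -0.18 and -0.27, with the probe shown above at -0.18. Without wild-type array 1, which leaves 1 wild-type array, the Fgfr1 difference was -0.43. Fgfr2 had signals of -0.85 and -0.72 on the transgenic arrays and -0.51 and -0.62 on the wild-type arrays for the first of the overlapping probes shown above, a difference of -0.22 ± 0.15 (adjusted p = 0.488). Both transgenic arrays were lower than both wild-type arrays. The second probe, shifted by 18 bases and printed 10 times, had signals of -2.97 and -3.03 on the transgenic arrays and -3.28 and -2.77 on the wild-type arrays, a difference of 0.027. Its groups overlapped, and on wild-type array 1 only 40% of its spots were well above background.

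**Figure D2:**
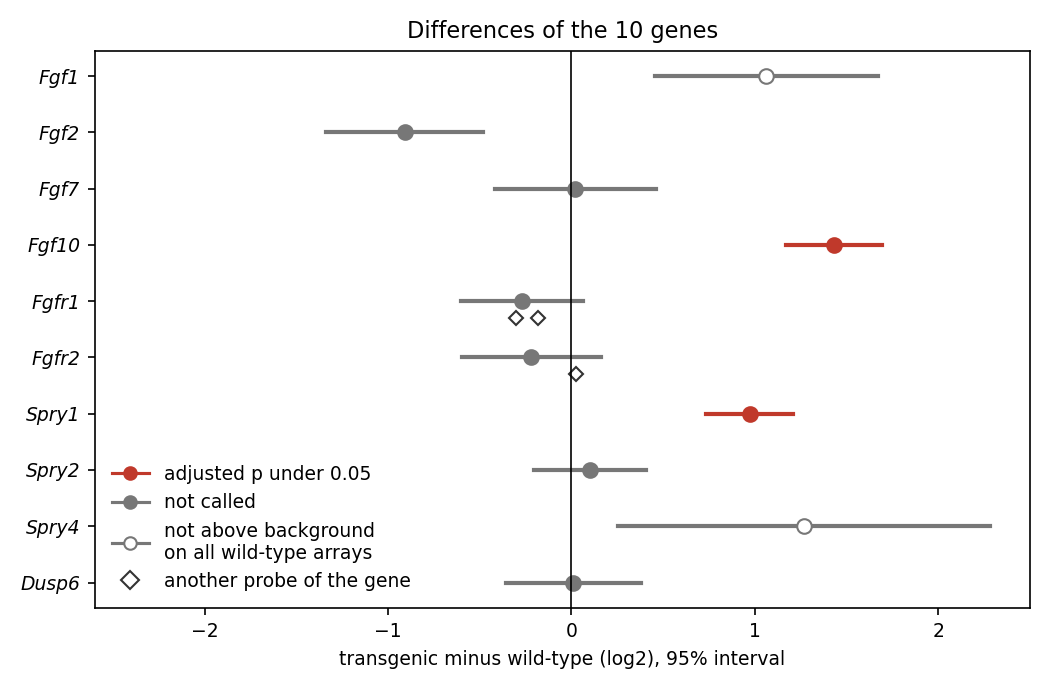
Transgenic minus wild-type difference (x axis, log2) of each gene with its 95% interval from the limma fit. Red points had an adjusted p under 0.05, open circles had at least 1 wild-type array not well above background, and diamonds are other tested probes of the same gene. Fgf10 at 1.43 and Spry1 at 0.97 were called, and the 3 Fgfr1 probes lie between -0.30 and -0.18.

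Among the feedback genes, Spry1, a cytoplasmic inhibitor of receptor tyrosine kinase signalling upstream of ERK, rose. Its signals were 3.05 and 3.18 on the transgenic arrays, against 2.14 on each wild-type array. Both transgenic arrays were higher, and the wild-type arrays were nearly equal. The difference was 0.97 ± 0.095 (SE, n = 2 per group, adjusted p = 0.0225), or 1.96-fold with a 95% interval of 1.67 to 2.31. By p-value it stood at place 92 of all features. The call was lost without transgenic array 1 (difference 1.03, adjusted p = 0.0823) or transgenic array 2 (difference 0.91, adjusted p = 0.0952), and with no intensity trend (adjusted p = 0.0938).

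Spry2 and Dusp6 had overlapping groups. Spry2, the most widely studied Sprouty protein, had signals of 1.43 and 1.66 on the transgenic arrays and 1.42 and 1.47 on the wild-type arrays. The difference was 0.10 ± 0.12 (SE, n = 2 per group, adjusted p = 0.699), with a 95% interval of 0.869 to 1.32 for the fold. Dusp6, the cytoplasmic phosphatase that inactivates ERK, had signals of 2.37 and 2.62 on the transgenic arrays and 2.63 and 2.33 on the wild-type arrays. The difference was 0.011 ± 0.15 (adjusted p = 0.976), with a 95% interval of 0.782 to 1.299 for the fold.

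Spry4, another Sprouty inhibitor, was at the limit of detection. Its processed intensity was 18.5 and 17.96 on the transgenic arrays, both well above background, against 4.06 and 9.38 on the wild-type arrays, neither well above background. The normalised means were -4.05 in transgenic and -5.32 in wild-type samples (adjusted p = 0.194). Each wild-type array was given as its limit the signal of this probe or of the dimmest probe called well above background there, whichever was higher. The transgenic mean was 1.01-fold the mean of these limits. It lay below the limit of wild-type array 1 (-3.40) and above that of wild-type array 2 (-4.74), so no minimum rise is given. With normexp background correction the difference was 0.0088, and with quantile normalization it was 1.70 (adjusted p = 0.292). Without wild-type array 2 the Spry4 difference was 1.64, against a wild-type array 1 on which it was not well above background. Of the 10 genes, 8 were well above background on all 4 arrays, while Spry4 and Fgf1 were admitted to the test by the transgenic arrays alone, so that a gene of this kind enters because its transgenic signal is high.

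**Figure D3:**
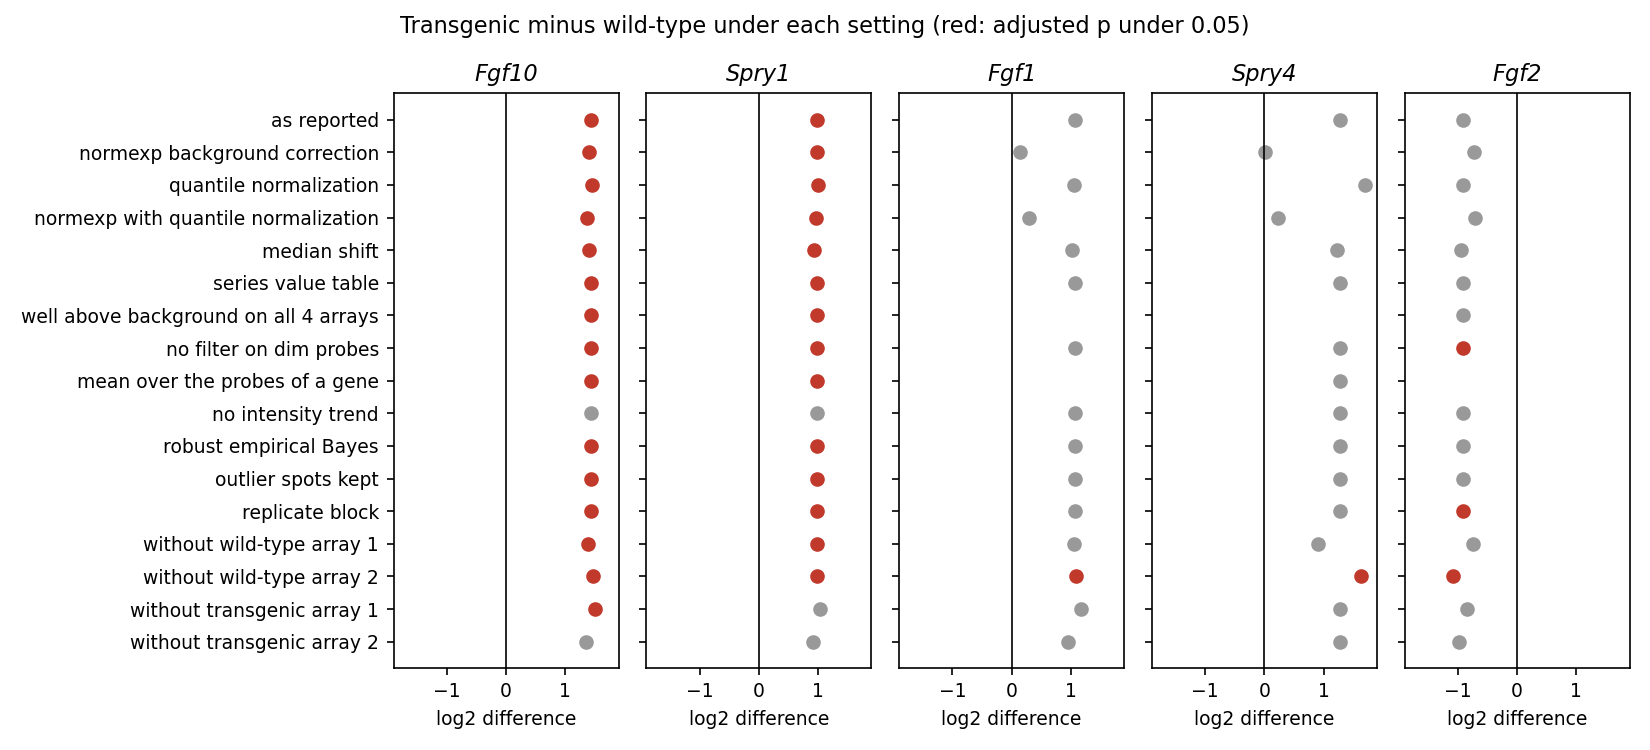
Transgenic minus wild-type difference (x axis, log2) of 5 genes under the reported settings and under each alternative (y axis); red points had an adjusted p under 0.05, and a missing point was not tested there. Fgf10 lay between 1.35 and 1.51 and Spry1 between 0.91 and 1.03 throughout, while Fgf1 and Spry4 were at 0.14 and 0.0088 with normexp background correction.

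The 2 promoters of the called genes are shown for the 250 bases before the annotated start, from RefSeq on build GRCm38.p6, at chr13:118714449-118714698 for Fgf10 and chr3:37639697-37639946 for Spry1, both on the plus strand. Capitals mark matches to any of 6 motifs, searched on both strands: CCGGAA (a form of ETS site), GGGCGG (GC box), TGANTCA (AP-1), TGACGTCA (CRE), CCAAT and TATAAA.
Fgf10 promoter: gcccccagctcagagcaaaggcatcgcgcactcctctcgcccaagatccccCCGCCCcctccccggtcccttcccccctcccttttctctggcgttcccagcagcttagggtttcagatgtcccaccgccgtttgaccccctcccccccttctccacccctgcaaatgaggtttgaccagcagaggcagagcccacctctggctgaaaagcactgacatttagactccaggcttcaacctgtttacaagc
Spry1 promoter: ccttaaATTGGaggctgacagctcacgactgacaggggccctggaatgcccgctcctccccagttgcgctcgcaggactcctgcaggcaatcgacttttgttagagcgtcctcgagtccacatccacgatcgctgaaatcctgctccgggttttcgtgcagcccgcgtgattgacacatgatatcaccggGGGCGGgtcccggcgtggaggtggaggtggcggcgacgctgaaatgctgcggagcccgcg
Both windows hold the GC box, in reverse at 199 bases before the start of Fgf10 and forward at 60 bases before the start of Spry1. This motif occurs in 32.7% of 32851 promoter windows of the same length. Spry1 also holds CCAAT in reverse at 244 bases before its start, as do 33.8% of the windows. The ETS core, AP-1, CRE and TATAAA letters, found in 12%, 6.75%, 1.55% and 12.4% of the windows, are not in either. Of the 10 genes 7 had a promoter in the table, and Fgf1, Fgfr1 and Spry4 are left without one here. Among genes that were not called, the window of Fgf2 also held the GC box, and those of Dusp6 and Fgf7 held CCAAT.

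The wider pathway was described with 6 lists holding 109 genes, 90 of them tested, the 10 genes included. Of the 90, 6 rose and 0 fell in the limma fit, with 21 higher and 15 lower at an unadjusted p under 0.05. Of all features 1.11% were called higher, 0.755% lower, and 18.4% had such an unadjusted p. In the lists 83 of the 90 were well above background on all 4 arrays. The arrays of the groups did not overlap for 56 of the 90, where this held for 52.2% of all features. Of the 80 genes besides the 10, 4 rose.

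Among 14 tested ligands and FGF-binding proteins, Fgf10 was the gene that rose and 0 fell, with 2 higher and 3 lower at an unadjusted p under 0.05 and a median difference of -0.015. Of these 14, 3 were tested through the transgenic arrays alone. Among 9 tested receptors and co-receptors 0 were called by limma, with 4 higher and 1 lower at an unadjusted p under 0.05 and a median of 0.31. Over the 8 of them well above background on all 4 arrays the median was 0.17. The smallest p there belonged to Flrt3, a membrane protein that binds FGF receptors, with signals of 1.99 and 2.02 on the transgenic arrays and 2.55 and 2.95 on the wild-type arrays (difference -0.74 ± 0.15, adjusted p = 0.0858). Of 16 tested Sprouty, Spred and phosphatase genes, Spry1 rose and 0 fell, with 5 higher and 4 lower at an unadjusted p under 0.05. The median was 0.056, or 0.016 with Spry4 at its bound, and -0.00084 over the 14 genes well above background on all 4 arrays.

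The kinases and adaptors of the Ras-ERK relay had differences around 0 at the median. Of 23 tested, 0 were called by limma, 1 was higher and 1 lower at an unadjusted p under 0.05, and the median was -0.037. The smallest p belonged to the ERK-activated kinase Rps6ka1, with signals of -1.75 and -1.71 on the transgenic arrays and -3.30 and -4.06 on the wild-type arrays (difference 1.95 ± 0.32, adjusted p = 0.0547). Its wild-type array 1 was not well above background.

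Of 16 tested transcription factors and targets known to be induced by ERK, 2 rose and 0 fell, with 6 higher and 3 lower at an unadjusted p under 0.05 and a median of 0.11. Etv1, an ETS factor induced by FGF signalling in vertebrate embryos, had signals of 1.04 and 1.29 on the transgenic arrays, against -0.53 and -0.081 on the wild-type arrays (difference 1.47 ± 0.19, adjusted p = 0.0379). Its call was lost with quantile normalization (adjusted p = 0.0521), with normexp and quantile normalization together (adjusted p = 0.0537) and with a median shift (adjusted p = 0.0731). Egr2, a zinc finger factor induced by growth factors and early in fat cell differentiation, had signals of 3.19 and 3.29 on the transgenic arrays, against 2.30 and 2.08 on the wild-type arrays (difference 1.06 ± 0.11, adjusted p = 0.0257). For both genes the groups were well apart.

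Among 12 tested core proteins that carry heparan sulfate, the co-receptor sugar of FGFs, 2 rose and 0 fell, with 3 higher and 3 lower at an unadjusted p under 0.05 and a median of -0.017. Col18a1, the basement membrane collagen that yields endostatin, had signals of 5.27 and 5.30 on the transgenic arrays, against 4.20 and 4.24 on the wild-type arrays (difference 1.06 ± 0.084, adjusted p = 0.0161). Syndecan 1 (Sdc1), a membrane proteoglycan, had 1.45 and 1.32 on the transgenic arrays, against 0.65 and 0.55 on the wild-type arrays (difference 0.79 ± 0.12, adjusted p = 0.0458). The call of Sdc1 was lost with quantile normalization (adjusted p = 0.0650), with normexp and quantile normalization together (adjusted p = 0.0604) and with a median shift (adjusted p = 0.0716). The calls of Etv1, Egr2, Col18a1 and Sdc1 were each lost when either transgenic array was left out (adjusted p from 0.0710 to 0.227) and with no intensity trend (adjusted p from 0.0802 to 0.120).

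**Figure D4:**
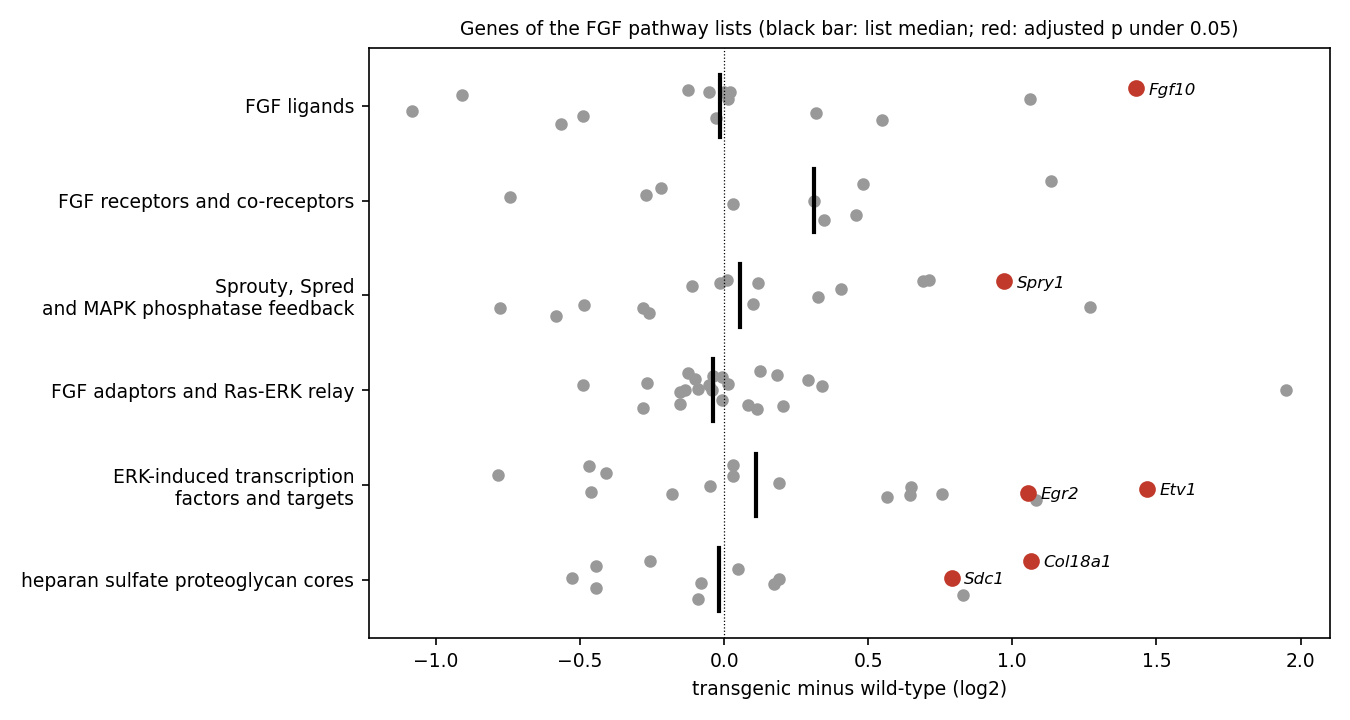
Transgenic minus wild-type difference (x axis, log2) of each tested gene in the 6 lists (rows). Red points had an adjusted p under 0.05 and are named, grey points did not, and black bars are list medians, which run from -0.037 for the relay to 0.31 for the receptors (0.17 over the receptors well above background on all 4 arrays).

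Markers of other cell types also differed between the groups. For each list the summed linear signal is given in units of the 75th percentile, and it follows the brightest probes, since probes differ in brightness. Of 16 tested macrophage markers 10 rose and 0 fell, Cd74, Pf4, C1qc and Mrc1 with the smallest p, and the median difference was 1.99. Of the 16, 6 were tested through the transgenic arrays alone, and of the 10 that rose 4 (C1qc, Mrc1, Lyz2 and Ptprc) were not well above background on 1 or both wild-type arrays. Over the 10 markers well above background on all 4 arrays, 6 rose and the median was 1.94. The summed signal was 77.1 to 78.2 on the transgenic arrays and 66.5 to 67.5 on the wild-type arrays, of which Itgam (difference -0.045, not called) made up 67.5% to 69.6% on the transgenic and 80.0% to 83.9% on the wild-type arrays. Cd163 and Fcgr1 were too dim to be tested. Ptprc, the general leukocyte marker, was well above background on both transgenic arrays and on wild-type array 2. Of 14 tested endothelial markers 1 rose (Egfl7), with a median of 1.87. The median was 0.94 with Sox17 and Emcn, well above background on neither wild-type array, at their bounds. Markers well above background on 1 wild-type array kept their measured values there. Of the 14, 7 were tested through the transgenic arrays alone, and over the other 7, well above background on all 4 arrays, 1 rose and the median was 0.77. The summed signal was 28.4 to 29.4 on the transgenic and 28.7 to 33.6 on the wild-type arrays. Erg was too dim to be tested, and Pecam1 was well above background on all 4 arrays. Of 10 tested smooth muscle and pericyte markers 3 rose (Acta2, Notch3 and Rgs5) and 1 fell (Kcnj8), with a median of 0.65, or 0.41 over the 9 well above background on all 4 arrays (2 rose, without Rgs5, and 1 fell), and a summed signal of 25.2 to 26.1 on the transgenic and 19.6 to 19.8 on the wild-type arrays, and Cnn1 was not tested. Of 10 tested mature adipocyte markers 4 rose (Cd36, Fabp4, Pparg and Slc2a4), with a median of 1.52 and a summed signal of 596 to 622 on the transgenic and 338 to 343 on the wild-type arrays, of which the Lpl probe made up 75.7% to 76.5% on the transgenic and 88.6% to 89.9% on the wild-type arrays. Cidec and Lep were not tested. Of 5 tested Schwann cell markers 1 rose (Ngfr), and 3 had positive and 2 negative differences, with a median of 0.59. Sox10 was tested through the transgenic arrays alone. The summed signal was 13.4 to 15.0 on the transgenic and 9.44 to 9.90 on the wild-type arrays. Mbp (difference -0.61, adjusted p = 0.0568 by limma) made up 28% of the sum on each transgenic array and 62% to 65% on the wild-type arrays. Of 6 epithelial markers only Krt14 was tested, with a summed signal of 0.0870 to 0.0914 on the transgenic and 0.0583 to 0.0937 on the wild-type arrays. Of the 12 progenitor markers 1 fell (Cd24a), with a median of -0.25 and a summed signal of 3608 to 3651 on the transgenic and 3697 to 4633 on the wild-type arrays. The part of these markers' cells in the values of Fgf10, Spry1 and the other FGF genes was not tested.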

How the data were processed

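Each RNA sample was labelled with Cy3 (low-input kit) for 1 Agilent array, as the labels' protocols state. Feature Extraction 10.7.3.1 made the scanner files, with probe positions on mm9, per the file headers. The processed intensity that the authors deposited is background-subtracted and detrended within each array, per the file headers, and the raw spot and background intensities were used for normexp (offset 50). A series table of log2 values, also deposited, does not say how it was made. They correlated at 0.99998 to 0.99999 with the normalised signals centred per probe, so that scale and direction are known, column medians were 0.193, -0.0209, -0.0454 and 0.0191, and they served as an alternative with probe means added back. All 4 arrays lay on 1 slide and 1 scan day, so no block for these was fitted.

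Control spots and spots marked as outliers by the scanner software were dropped (56 probes then lacked a value on some array). Remaining spots were averaged per probe as log2, and the 75th percentile of each array was subtracted. RefSeq accessions (GRCm38.p6 table, names alone) named 26582 probes, 2892 by another symbol than the design, and 29099 kept the design's name. For each gene the probe of highest mean was used, and the gene was tested where over 0.5 of that probe's spots were well above background on each array of 1 or both groups. The fit was made in limma 3.58.1 under R 4.3.3 (intensity trend, 2-sided, Benjamini-Hochberg over 24518 features, called at 0.05), checked on simulated data. The median SE was 0.18. Residual degrees of freedom were 2 and prior degrees of freedom 3.50, so the variance behind each SE, interval and p-value was partly borrowed from other features.

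The text names all 10 genes, every called gene of the 6 pathway lists or else the one with the smallest p, and up to 4 called markers per cell type. Genes and lists were chosen with earlier results of these data known. No set test was run. Alternatives were normexp, quantile normalization, both, a median shift, the series table, other filters on dim probes, probe means, other variance models, outlier spots kept, the replicate number as a block and each array left out.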

Additional observations from a re-analysis of the deposited data

How the results depend on the processing

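Over 12 alternatives with all arrays, Fgf10 and Spry1 kept their direction in all and their call in 11, with differences of 1.37 to 1.44 and 0.94 to 0.99. The exception was limma with no intensity trend. It called 0 of the 10 genes, 0 of the 6 lists' genes and 14 features in all. At an unadjusted p under 0.05 were 5 of the 10 genes, 28 of the lists' genes and 4097 of all 24518 features. All features called were 291 with quantile normalization, 287 with normexp and quantile normalization and 765 with no filter on dim probes, where the median difference of all features was -0.18 and the lists' calls were 13. Leaving out 1 array gave 0 to 5 calls among the 10 genes, 0 to 25 in the lists and 18 to 4521 in all, with the lone array of a group assumed to vary like the other pair. The highest counts came without wild-type array 2 and the lowest without transgenic array 2. With each probe as its own feature, an alternative chosen after seeing the data, 2 of 13 tested probes were called. In that fit 1.81% of all 29387 tested probes were called. The sign of genes near 0 turned for Fgf7 with a median shift (-0.016), without wild-type array 1 (-0.099) and without transgenic array 2 (-0.20, the lowest, against 0.25 at the highest without transgenic array 1), for Dusp6 with a median shift (-0.025), without wild-type array 2 (-0.14, against 0.16 at the highest without wild-type array 1) and without transgenic array 2 (-0.11), and for Spry2 without transgenic array 2 (-0.017, against 0.22 without transgenic array 1). Replicate numbers of the labels name samples and are not said to mark a shared batch. The deviations of same-numbered arrays correlated at 0.00317 over features. With the replicate number as a block there were 1077 calls, 15 in the lists and 3 of the 10 genes, Fgf2 being the gene added (adjusted p = 0.0452, and 0.0418 with no filter on dim probes). The cause of these shifts was not tested. Signal over background limits Spry4, undetected on both wild-type arrays by the scanner's background test, and Fgf1, undetected on wild-type array 1. Spry4 differed by 1.64 without wild-type array 2 and by 1.70 with quantile normalization (adjusted p = 0.292).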

Other observations

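The genes below, other than the 10 and the called ones, were picked after their values were seen. The ETS factors Etv4 and Etv5, which FGF signalling is known to induce, had differences of 0.57 ± 0.19 (adjusted p = 0.202) and 0.64 ± 0.12 (adjusted p = 0.0743), and neither was called. The immediate early genes Fos and Egr1, which ERK also induces, had differences of -0.79 ± 0.15 (adjusted p = 0.0799) and -0.41 ± 0.12 (adjusted p = 0.161), opposite in sign to the called Egr2. Fos had signals of 6.61 and 6.45 on the transgenic arrays and 7.51 and 7.12 on the wild-type arrays. The ligands Fgf9 and Fgf18 had differences of -1.08 ± 0.23 (adjusted p = 0.0984) and -0.49 ± 0.094 (adjusted p = 0.0759), and the receptors Fgfr3 and Fgfr4 of 1.13 ± 0.26 (adjusted p = 0.112) and 0.46 ± 0.10 (adjusted p = 0.103). A dimmer Fgfr4 probe, above background on 2 of 4 arrays, had a difference of -2.36. Il17rd, an inhibitor of FGF receptor signalling at the membrane, had a difference of -0.58 ± 0.13 (adjusted p = 0.108).

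An FGF gene lies near a Sprouty gene at a pair of loci. Fgf2 and Spry1 lie on chromosome 3 with the protein-coding genes Nudt6 and Spata5 between them, and Fgf1 and Spry4 lie on chromosome 18 with the predicted gene Gm19774 between them, in the RefSeq order. In the first pair the differences were -0.91 for Fgf2, 0.016 for Nudt6 (adjusted p = 0.969), 0.23 for Spata5 (adjusted p = 0.533) and 0.97 for Spry1, so the ends of the interval had opposite signs and of the 4 genes Spry1 alone was called. In the second pair Fgf1 had a difference of 1.06, with wild-type array 1 not well above background. Spry4 had a difference of 1.27, with neither wild-type array well above background. Neither was called.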
